A study of Mus musculus with 6 samples.

Results

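Vitamin A travels from the liver to other tissues and is turned over within it by a small set of proteins, and 9 genes of that set were read from the liver transcriptomes of mice kept on chow with or without polypropylene microplastic (PP-MP). They were the rows of the deposited count table, out of 56674, whose gene symbol was Rbp4, Rdh7, Rdh10, Rdh16, Dhrs3, Cyp26a1, Rara, Rarb or Rxra. Each symbol stood on 1 row, and all 9 passed the filter on low counts. The control group held 3 liver samples from male C57BL/6 mice fed normal chow, and the PP-MP group held 3 from male C57BL/6 mice fed chow that contained PP-MP, with 71 weeks given for every sample. The sources used here do not give a dose, a particle size or when exposure began. A treatment field names PS-MP for all 6 samples, controls included, so groups follow the titles and characteristics. Nothing in the labels says that the samples of a group came from separate animals, so the p-values measure only the spread between these samples, which may be technical.

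Retinol is stored in hepatic stellate cells as retinyl esters and leaves hepatocytes bound to retinol binding protein, which Rbp4 encodes and which circulates in a complex with transthyretin (Ttr). Inside cells, retinol and retinaldehyde are interconverted by retinol dehydrogenases and retinaldehyde reductases, and retinaldehyde is oxidised irreversibly to retinoic acid. Retinoic acid binds receptors of the RAR family, which act as partners of RXR receptors on DNA, and it is removed by CYP26 hydroxylases.

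The RAR and RXR pair typically binds direct repeats of a hexamer, and a known class of such elements has 5 bases between the repeats. Promoter windows from RefSeq (GRCm38.p6, 250 bases before to 50 bases after an annotated start) were at hand for 8 of the 9 genes, 16 windows in all. They were searched on both strands for same-direction pairs of the hexamer AGGTCA or of its variants, namely AGTTCA as well as GGGTCA together with GGTTCA, in any combination, with 5, 2 or 1 bases between them. Pairs with 5 bases between lay in the windows of 2 genes, Cyp26a1 and Rarb, and in those of 31 of 27025 genes (0.115%) overall. Both genes are textbook targets of retinoic acid, and their elements are shown because the level of these transcripts is the usual readout of the pathway. Each is printed on the strand of its gene with the hexamers in capitals, which for Cyp26a1 are the reverse complements.
Cyp26a1, chr19:37697770-37697798, + strand: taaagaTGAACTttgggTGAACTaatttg
Rarb, chr14:16575507-16575535, − strand: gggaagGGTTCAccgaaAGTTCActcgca
The pair lay 32 to 16 bases before the RefSeq start of Cyp26a1 and 53 to 37 bases before that of Rarb. In GENCODE M21, also on GRCm38, all 29 printed bases of Rarb fall in an exon of that gene, against 1 of the 29 printed for Cyp26a1. Pairs with 2 or 1 bases between, present in 0.311% and 0.263% of all genes, were found in none of the 8 genes with a window. Such matches describe letters in a window and are not evidence of binding.

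Library totals ran from 68357478 to 112566641 counts, and the 9 genes together took 0.389% to 0.577% of them. Levels are given below as CPM, the counts of a gene relative to the size of its library, scaled with TMM factors, and as mean ± SD over n = 3 libraries per group. PP-MP 1 stood apart in its acute phase genes, which the liver makes in inflammation. The summed level of 8 acute phase genes was 19694 CPM there against 2695 to 3675 CPM in control, 3725 CPM in PP-MP 2 and 3166 CPM in PP-MP 3. Of the 6 libraries PP-MP 1 also had the lowest level of 8 of the 9 retinoid genes and the highest of Rarb, and the part of its acute phase state in these levels was not tested. Control 2 differed more from control 1 and control 3 (chi-square per degree of freedom 610 and 928 over genes) than those 2 did from each other (235). Fits without PP-MP 1 or without control 2 are quoted for some of the genes below but not for all.

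None of the 9 genes passed the edgeR quasi-likelihood threshold of an adjusted p of 0.05 (adjusted p from 0.23 to 0.96), where 2 of 18284 genes (0.0109%) were called. On the TMM scale, 5 of the 9 had groups that did not overlap. For Rdh7, Rdh10, Rdh16, Dhrs3 and Rara the highest PP-MP library was below the lowest control library, which held for 9.79% of all genes tested, and 0 of the 9 were higher in this sense, against 12.2% of all genes. At an unadjusted edgeR p under 0.05 stood 4 of the 9 (13.9% of all genes), of which 4 were lower (5.81%) and 0 higher (8.05%). The median log2 fold change of the 9 was −0.37, beside 0.03 over all genes tested. These counts depend on how libraries are scaled. When libraries were scaled by their totals instead, the median of all genes moved up by 0.23 on the log2 scale, 0 of the 9 were separated (2.59% of all genes lower, 24.5% higher), and 0 had an unadjusted p under 0.05. Without any 1 of control 1, control 3, PP-MP 1 or PP-MP 3, 1 of the 9 had an unadjusted p under 0.05, and without PP-MP 2 there were 2, whereas there were 5 without control 2 and 5 without control 2 and PP-MP 1 together. DESeq2 called 1 of the 9, Rdh10 (4.26% of all genes), as lower (1.87%).

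**Figure D1:**
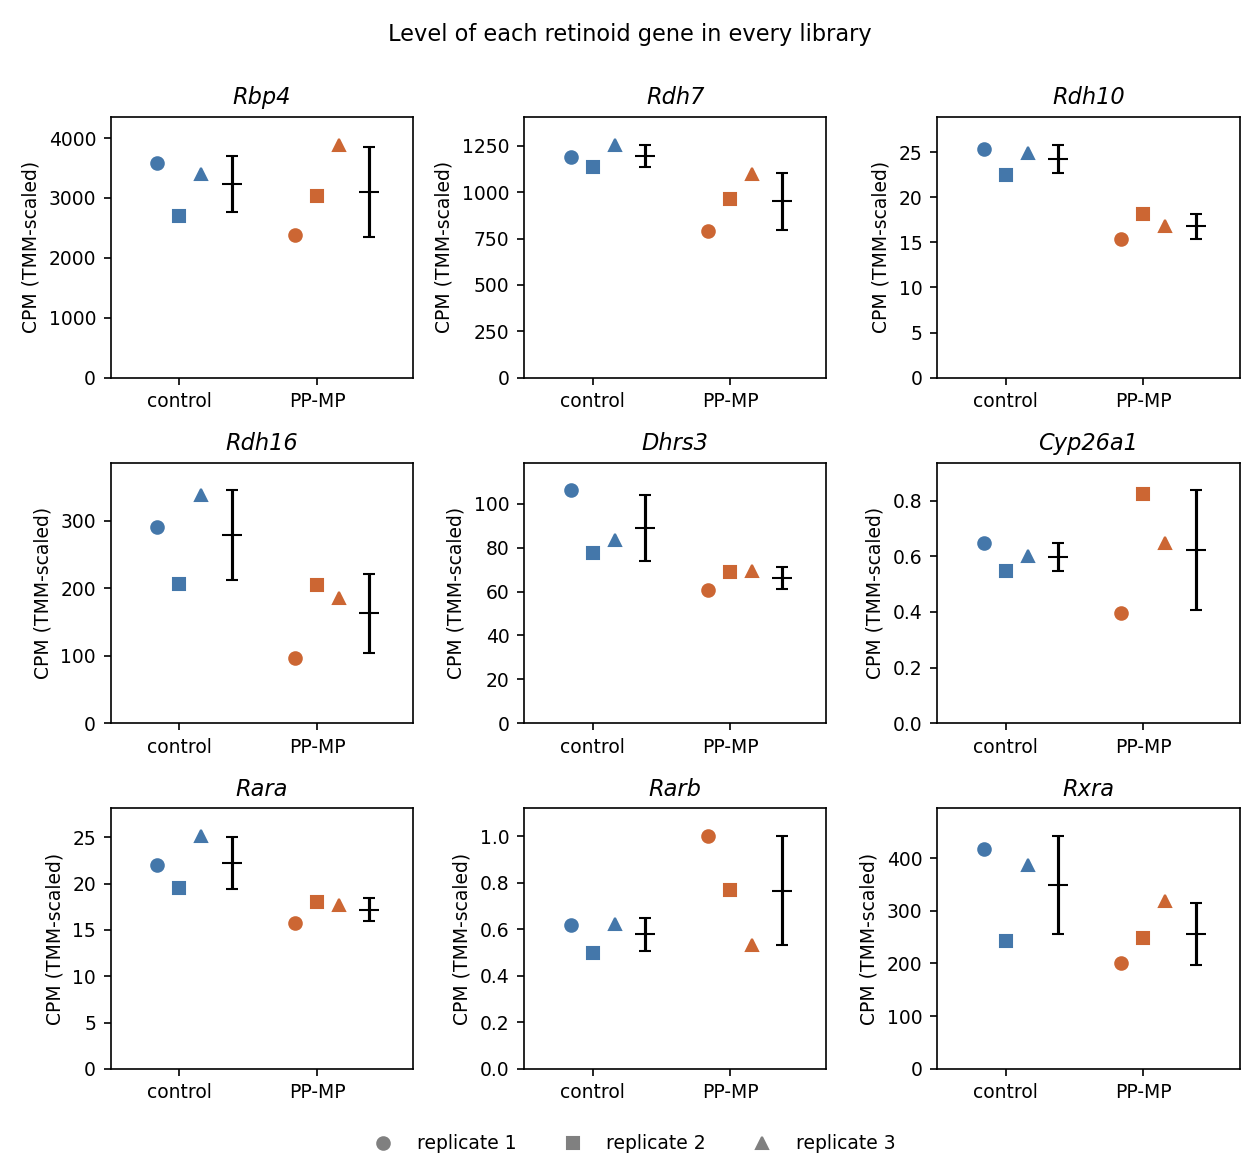
Level of each of the 9 retinoid genes in CPM scaled with TMM factors (vertical axes from 0), with 1 point per library (marker shape gives the replicate number) and the mean ± SD beside each group of 3. Rdh10 shows the clearest gap, with PP-MP libraries at 15.4 to 18.1 CPM and control libraries at 22.4 to 25.4 CPM, while Rbp4, Cyp26a1, Rarb and Rxra overlap between the groups.

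Per kilobase of annotated exon the 9 genes covered a wide range of levels in control livers. Rbp4 was highest, at 2405 ± 348 CPM per kilobase, and Rdh7 followed at 712 ± 35.8. Rxra (63.8 ± 17.1), Rdh16 (44.8 ± 10.7) and Dhrs3 (30.4 ± 5.14 CPM per kilobase) came next, and the libraries of Rxra overlapped those of Rdh16, as those of Rdh16 overlapped those of Dhrs3. Rdh10 (5.82 ± 0.377) and Rara (5.10 ± 0.640 CPM per kilobase) overlapped as well. Cyp26a1 (0.302 ± 0.0253) and Rarb (0.110 ± 0.0135 CPM per kilobase) were lowest and did not overlap. The order of the group means was the same in PP-MP, with Rbp4 at 2308 ± 562, Rdh7 at 567 ± 91.7, Rdh10 at 4.03 ± 0.329, Rara at 3.94 ± 0.282 and Rarb at 0.146 ± 0.0445 CPM per kilobase, and there the libraries of Rdh16 and Dhrs3 and those of Rdh10 and Rara overlapped.

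Rbp4, the secreted carrier of retinol, stood at 3230 ± 467 CPM under normal chow and 3099 ± 754 CPM under PP-MP, a difference smaller than the spread within either group. Control libraries 1, 2 and 3 held 3587, 2701 and 3402 CPM, and PP-MP libraries 1, 2 and 3 held 2382, 3029 and 3886 CPM. Both the lowest and the highest library were PP-MP ones, and the groups overlapped throughout. The log2 fold change was −0.06 (SE 0.24, 95% interval −0.63 to 0.51, edgeR adjusted p = 0.93), an interval that lies within 2-fold, as it did for 6 of the 9 genes and for 46.3% of all genes. Its sign is not fixed, since it was 0.16 with library totals and ran from −0.26 without PP-MP 3 to 0.10 without PP-MP 1. Ttr, whose protein carries retinol binding protein in plasma, stood at 5475 ± 1044 CPM under normal chow and 3924 ± 1130 CPM under PP-MP (log2 fold change −0.48, SE 0.28, edgeR adjusted p = 0.48). PP-MP 1, the acute phase library, was lowest for both genes, at 2382 CPM for Rbp4 and 2647 CPM for Ttr.

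A ratio of 2 genes within a library does not depend on scaling, and 8 such ratios were formed after the values were seen. The ratios to Rbp4 have the same denominator and so are not independent. The share of all genes that separate relative to Rbp4 was not computed. Counts of Ttr per 1000 counts of Rbp4 were 1818, 1642 and 1607 in controls 1, 2 and 3, against 1111, 1431 and 1233 in PP-MP 1, 2 and 3. Every PP-MP library thus had less Ttr relative to Rbp4 than every control library (log2 difference −0.43, −0.53 to −0.34 as single libraries were left out). The exact permutation p was 0.1, two-sided, and 3 against 3 allow none smaller (0.2 after Benjamini-Hochberg adjustment over the 8 ratios).

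Rdh10, the membrane-bound enzyme that oxidises retinol to retinaldehyde and commits it to retinoic acid synthesis, was the member with the smallest p. It stood at 25.4, 22.4 and 24.9 CPM in controls 1, 2 and 3, against 15.4, 18.1 and 16.8 CPM in PP-MP 1, 2 and 3. All PP-MP libraries were below all control libraries, with a gap wider than the SD of either group (24.2 ± 1.57 and 16.8 ± 1.37 CPM). The log2 fold change was −0.53 (SE 0.13, 95% interval −0.84 to −0.22, edgeR adjusted p = 0.23, unadjusted p = 0.0053). Over the alternatives the adjusted p ran from 0.021 with DESeq2 to 0.48, and the log2 fold change from −0.59 to −0.47 as single libraries were left out. With library totals the change was −0.30 and the groups overlapped, at 19.8 to 24.3 CPM under normal chow and 16.9 to 20.4 CPM under PP-MP. Relative to Rbp4, which needs no scaling, Rdh10 stood at 7.07, 8.31 and 7.32 counts per 1000 in controls 1, 2 and 3, against 6.45, 5.98 and 4.33 in PP-MP 1, 2 and 3. These groups did not overlap (log2 difference −0.45, exact permutation p = 0.1, two-sided). On the TMM scale Rbp4 itself had a log2 fold change of −0.06. Ratios to Rbp4 therefore stay close to the TMM result and are no independent check of it.

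**Figure D2:**
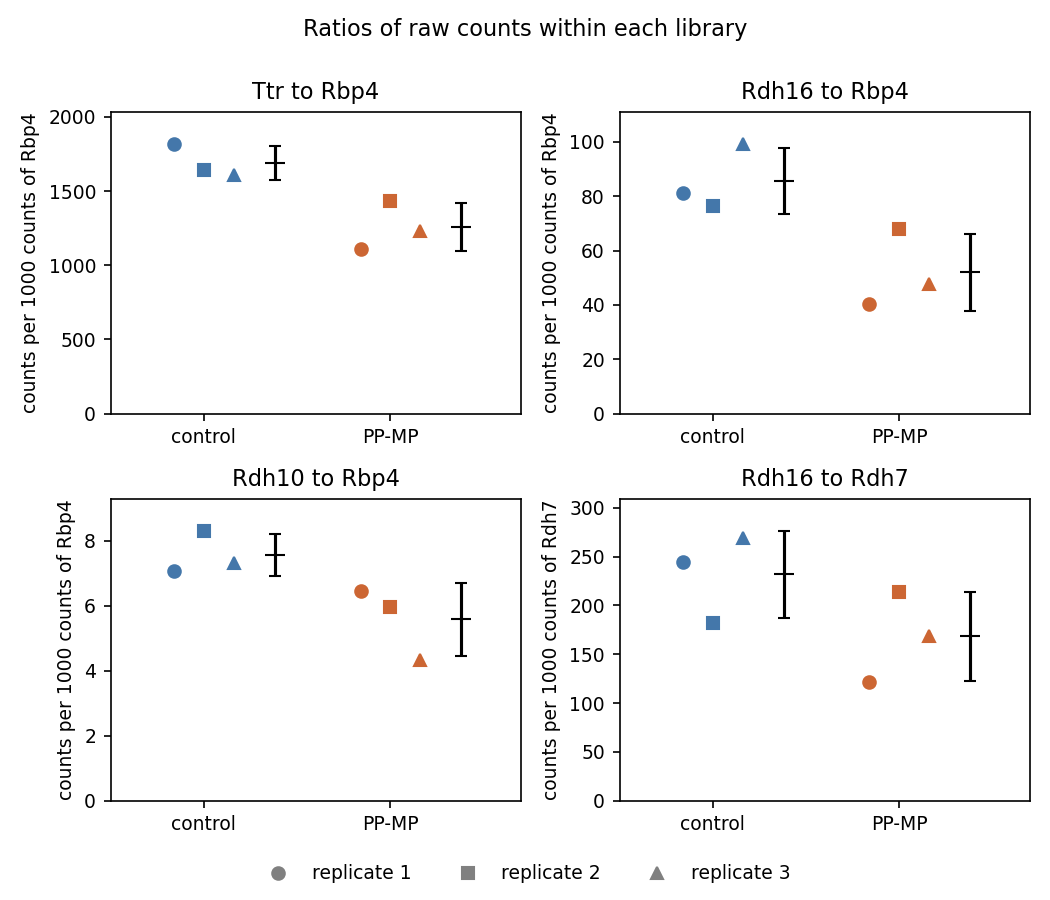
Ratios of raw counts within each library, as counts per 1000 counts of the second gene (vertical axes from 0), with 1 point per library and the mean ± SD of each group of 3. The ratios of Ttr, Rdh16 and Rdh10 to Rbp4 do not overlap between the diets, while that of Rdh16 to Rdh7 does.

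Rdh16 and Rdh7 belong to a cluster of related short-chain dehydrogenase genes on chromosome 10, and both encode liver enzymes that act on retinols and on steroids. Their promoter windows share a stretch of 117 aligned columns with 72.6% identity, and its first part is shown as an example of their shared sequence. The printed part lies 250 to 202 bases before the RefSeq start of Rdh16 and 132 to 85 bases before that of Rdh7. No identity was computed for other pairs of windows, and any bearing of this sequence on the levels of the 2 genes was not tested. Capitals mark the 37 aligned bases that are identical in the part printed, which ends where the first annotated exon of Rdh7 begins.
Rdh16, chr10:127800903-127800951, + strand: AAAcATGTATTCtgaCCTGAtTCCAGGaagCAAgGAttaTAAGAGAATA
Rdh7, chr10:127888818-127888865, − strand: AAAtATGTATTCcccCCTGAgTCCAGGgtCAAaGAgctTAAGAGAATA
The longest identical run over the whole windows was 12 bases, and 1.62% of the other 32848 windows shared a run at least as long with the window of Rdh16. Of the 2 windows of Rdh7, the one with the longer shared run was used, and both sequences are from RefSeq on GRCm38.p6.

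Rdh16 stood at 291, 207 and 338 CPM in controls 1, 2 and 3, against 96.5, 205 and 186 CPM in PP-MP 1, 2 and 3. The groups came close to touching, since control 2 and PP-MP 2 differed by less than 2 CPM, and PP-MP 1 was by far the lowest. The log2 fold change was −0.78 (SE 0.32, 95% interval −1.55 to −0.0015, edgeR adjusted p = 0.36). It was −0.51 without PP-MP 1, where acute phase genes were highest, and −0.94 without control 2. Rdh16 per 1000 counts of Rbp4 was 81.1, 76.6 and 99.3 in controls 1, 2 and 3, against 40.5, 67.8 and 47.8 in PP-MP 1, 2 and 3, without overlap (log2 difference −0.74, exact permutation p = 0.1, two-sided).

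Rdh7 had the second highest level per kilobase. It stood at 1192, 1136 and 1256 CPM in controls 1, 2 and 3, against 792, 962 and 1099 CPM in PP-MP 1, 2 and 3. The highest PP-MP library was just under the lowest control library. On the log2 scale the fold change was −0.33 (SE 0.18, 95% interval −0.76 to 0.10, edgeR adjusted p = 0.45) and −0.10 with library totals. Relative to Rbp4 the groups of Rdh7 overlapped, at 374 ± 44.3 counts per 1000 in control and 311 ± 25.4 in PP-MP (log2 difference −0.26, exact permutation p = 0.2, two-sided). Rdh10 per 1000 counts of Rdh7 did not overlap, at 20.3 ± 0.862 and 17.8 ± 2.23 (log2 difference −0.19, exact permutation p = 0.1, two-sided, 0.2 adjusted over the 8 ratios). The groups nearly touched, with the lowest control library at 19.8 and the highest PP-MP library at 19.4. Counts of Rdh16 per 1000 counts of Rdh7 overlapped between the diets, at 232 ± 44.7 in control and 168 ± 45.9 in PP-MP (log2 difference −0.48, exact permutation p = 0.2, two-sided), and with 3 libraries a side this leaves a difference between the 2 genes undecided.

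Both genes share sequence with the rest of the cluster, which makes their counts uncertain. Of the 50-base words of the annotated Rdh16 transcripts, 14.0% also occur in another gene on the same strand (6.28% in Rdh9, 6.04% in Rdh18-ps and 5.88% in Rdh16f1, among others). The same holds for 12.9% of those of Rdh7 (10.9% in Rdh18-ps, among others). For Rara the share was 0.230%, and it was 0 for the other 6 genes. Rdh18-ps also covers 381 of the 6217 exonic bases of Rdh16 on the same strand. It was under the filter, at 3.48 CPM in control 2 and at most 0.522 CPM in any other library. Other genes of the cluster did not all stand on the same side. Rdh9, named for its shared words, was at 90.4 ± 30.3 CPM under normal chow and 67.0 ± 10.2 CPM under PP-MP with overlap (log2 fold change −0.43, SE 0.27, edgeR adjusted p = 0.50). Rdh16f2 was at 47.4 ± 7.19 CPM under normal chow and 73.5 ± 20.5 CPM under PP-MP (log2 fold change 0.64, SE 0.24, edgeR adjusted p = 0.34). Rdh16f1, looked up for its shared words after the values were seen, was at 18.3 ± 1.31 and 36.0 ± 20.1 CPM (log2 fold change 0.97, SE 0.44, edgeR adjusted p = 0.38), with PP-MP 1, at 14.4 CPM, below every control library. Rdh19 was at 4.46 ± 0.300 and 2.78 ± 0.854 CPM (log2 fold change −0.68, SE 0.27, edgeR adjusted p = 0.35).

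Dhrs3 encodes a retinaldehyde reductase that returns retinaldehyde to retinol and works as a partner of the Rdh10 enzyme. Its levels were 106, 77.7 and 83.4 CPM in controls 1, 2 and 3, against 60.5, 68.9 and 69.6 CPM in PP-MP 1, 2 and 3. The PP-MP libraries lay close together and below all controls, of which control 1 was the highest. The fitted log2 fold change was −0.42 (SE 0.16, 95% interval −0.81 to −0.04, edgeR adjusted p = 0.34), and it was −0.27 without control 1. With library totals it was −0.20 and the groups overlapped. Dhrs3 per 1000 counts of Rbp4 overlapped as well, at 27.6 ± 2.72 in control and 22.0 ± 3.80 in PP-MP (exact permutation p = 0.2, two-sided).

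Cyp26a1, the main hydroxylase that clears retinoic acid and a sensitive target of it, was barely expressed. The libraries held 47, 33 and 63 raw counts in controls 1, 2 and 3, against 40, 75 and 67 in PP-MP 1, 2 and 3, or 0.648, 0.547 and 0.602 CPM and 0.396, 0.823 and 0.648 CPM. The PP-MP libraries spanned both the lowest and the highest value. Exact 95% Poisson intervals, which cover counting error only, ran from 28.6 to 54.5 counts for PP-MP 1 and from 59.0 to 94.0 for PP-MP 2. On the log2 scale the difference was 0.05 (SE 0.36, 95% interval −0.80 to 0.90, edgeR adjusted p = 0.96), and its sign turned under some alternatives.

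Rara encodes the retinoic acid receptor alpha, the RAR of highest level per kilobase in these livers. It stood at 22.0, 19.6 and 25.1 CPM in controls 1, 2 and 3, against 15.8, 18.1 and 17.7 CPM in PP-MP 1, 2 and 3. All PP-MP libraries were below all control libraries. The fitted log2 difference was −0.37 (SE 0.15, 95% interval −0.72 to −0.023, edgeR adjusted p = 0.35), −0.25 without control 3 and −0.14 with library totals, where the groups overlapped.

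Rarb encodes the retinoic acid receptor beta, whose own promoter responds to retinoic acid. The libraries held 45, 30 and 65 raw counts in controls 1, 2 and 3, against 101, 70 and 55 in PP-MP 1, 2 and 3, or 0.620, 0.498 and 0.621 CPM and 1.001, 0.768 and 0.532 CPM. PP-MP 1 and PP-MP 2 were above every control library and PP-MP 3 lay within the control range. The estimated log2 fold change was 0.40 (SE 0.34, 95% interval −0.41 to 1.21, edgeR adjusted p = 0.62) and 0.16 without PP-MP 1. The gene model Top2b on the opposite strand covers 1793 of the 5265 exonic bases of Rarb, and no source used here gives the strand setting of the counting. Top2b, a DNA topoisomerase gene looked up for this overlap, was at 23.9 ± 11.5 CPM under normal chow and 40.3 ± 5.78 CPM under PP-MP, and its part in the Rarb counts was not tested.

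Rxra encodes the retinoid X receptor of highest level per kilobase in these livers, which also pairs with other nuclear receptors such as PPAR, LXR, FXR, CAR and PXR. It stood at 417, 242 and 386 CPM in controls 1, 2 and 3, against 201, 248 and 319 CPM in PP-MP 1, 2 and 3. Control 2 lay among the PP-MP libraries, so the groups overlapped. On the log2 scale the fold change was −0.44 (SE 0.27, 95% interval −1.08 to 0.19, edgeR adjusted p = 0.49). Without control 2 it was −0.64 and the groups no longer overlapped (edgeR adjusted p = 0.19). Rara per 1000 counts of Rxra was 66.2 ± 14.0 in control and 69.0 ± 11.9 in PP-MP (log2 difference 0.06, exact permutation p = 0.8, two-sided).

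**Figure D3:**
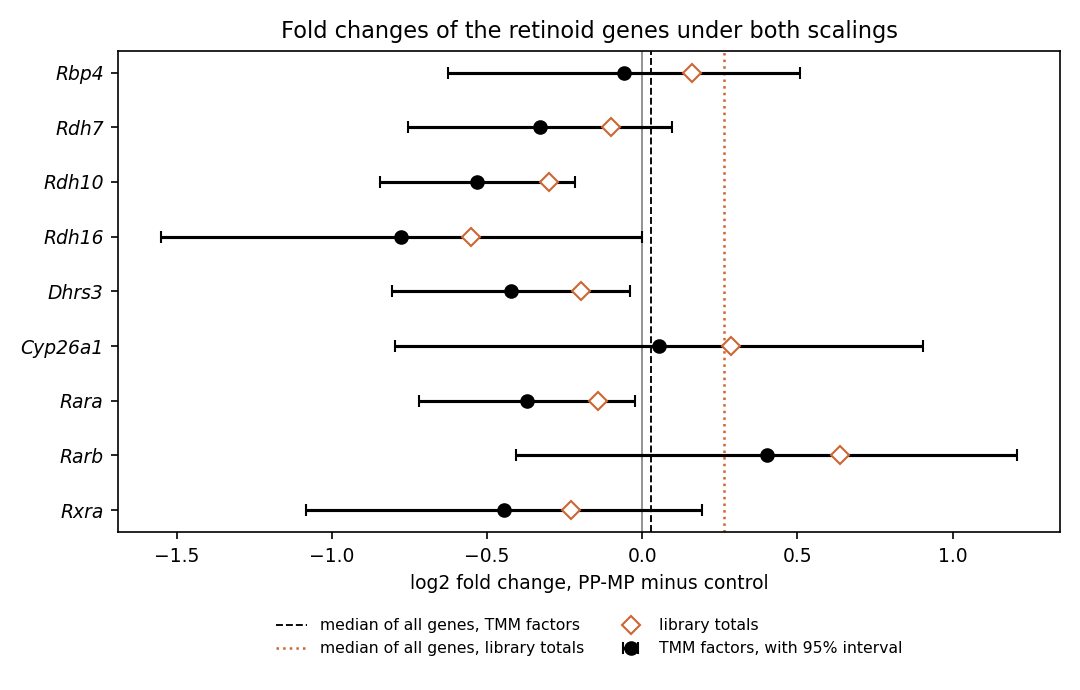
Log2 fold change of each gene, PP-MP minus control, with TMM factors (filled points with the 95% interval of the edgeR fit) and with library totals (open diamonds), beside the median of all genes under each scaling. All 9 points and the median of all genes move to the right with library totals, the median by 0.23, and Rbp4 passes from −0.06 to 0.16.

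Of the other genes of the pathway, 62 were listed by role, of which 51 passed the filter on low counts and 7 had 0 counts in all libraries. With edgeR 0 passed the threshold, while 11 of the 51 had an unadjusted p under 0.05 on the lower side (5.81% of all genes) and 2 on the higher side (8.05%). In 13 of the 51 every PP-MP library was below every control library (9.79% of all genes), and in 2 every one was above (12.2%). The median log2 fold change was −0.09. With library totals it was 0.15, and 5 were separated below (2.59% of all genes) and 9 above (24.5%). DESeq2 called 2, Ces1g and Rxrb (4.26% of all genes), both lower.

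Among the binding and uptake genes, 0 of 4 tested were separated. Stra6l, a receptor for retinol binding protein in liver, was at 84.0 ± 7.26 CPM under normal chow and 101 ± 13.7 CPM under PP-MP, and Scarb1, a lipoprotein receptor that also takes up carotenoids, was at 152 ± 16.7 and 131 ± 23.9 CPM. Among the genes of ester storage and hydrolysis, 4 of 9 were separated below (9.79% of all genes) and 1 above (12.2%). All 4 were carboxylesterase genes of the Ces1 family, each lowest in PP-MP 1, and sequence shared between them was not measured. The median log2 fold change of the 9 was −0.23, and −0.0041 with library totals. Ces1g, a carboxylesterase, was at 292 ± 74.3 CPM under normal chow and 130.4 ± 47.4 CPM under PP-MP (log2 fold change −1.16, SE 0.33, edgeR adjusted p = 0.25, DESeq2 adjusted p = 0.030). Its relatives Ces1d, at 976 ± 152 and 461 ± 235 CPM, and Ces1e, at 249.6 ± 50.1 and 138 ± 64.9 CPM, were also separated below. The gene separated above was Lrat, which makes retinyl esters in stellate cells. It falls outside the naming rule and was picked for this direction after its values were seen, at 6.31, 13.8 and 12.5 CPM in controls 1, 2 and 3, against 19.4, 14.8 and 15.3 CPM in PP-MP 1, 2 and 3 (log2 fold change 0.60, SE 0.30, edgeR adjusted p = 0.43).

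Bco2, an enzyme that cleaves carotenoids off centre, was at 15.5 ± 0.655 CPM under normal chow and 10.8 ± 1.84 CPM under PP-MP (log2 fold change −0.52, SE 0.17, edgeR adjusted p = 0.29). Bco1, which cleaves beta-carotene to retinaldehyde, was at 3.75 ± 0.440 and 4.66 ± 0.729 CPM, and Retsat, retinol saturase, at 1179 ± 217 and 999 ± 528 CPM. Rdh11, a microsomal retinaldehyde reductase, was at 26.8 ± 7.27 and 16.2 ± 1.29 CPM (log2 fold change −0.73, SE 0.21, edgeR adjusted p = 0.25). Of 13 tested genes for other retinol dehydrogenases and reductases, 2 were separated below, Rdh11 and Rdh19, a share near that of all genes (9.79%).

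Of 5 genes listed as retinaldehyde dehydrogenases, 2 were separated below (9.79% of all genes), Aldh1a1 and Aldh1a7. The median log2 fold change of the 5 was −0.17, and it turned to 0.058 with library totals. Aldh1a1, the main cytosolic retinaldehyde dehydrogenase of adult liver, was at 1920 ± 284 CPM under normal chow and 1247 ± 469 CPM under PP-MP (log2 fold change −0.62, SE 0.32, edgeR adjusted p = 0.44). Aldh1a7, listed as a close relative of Aldh1a1, was at 222 ± 26.3 and 143 ± 24.6 CPM (log2 fold change −0.64, SE 0.18, edgeR adjusted p = 0.25). Whether its enzyme makes retinoic acid cannot be read from these data. Aldh1a3 was at 1.04 ± 0.146 and 1.45 ± 0.603 CPM. Cyp26b1, the second retinoic acid hydroxylase, was at 1.90 ± 0.495 CPM under normal chow and 3.41 ± 1.15 CPM under PP-MP (log2 fold change 0.84, SE 0.35, edgeR adjusted p = 0.36), with overlap between the groups. Cyp2c39, which can also hydroxylate retinoic acid, was at 4.22 ± 2.07 and 4.18 ± 1.42 CPM.

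Rxrb, a second retinoid X receptor, had the smallest p of the other receptors, at 23.9 ± 1.23 CPM under normal chow and 17.1 ± 1.07 CPM under PP-MP without overlap (log2 fold change −0.48, SE 0.12, edgeR adjusted p = 0.23, DESeq2 adjusted p = 0.022). Rarg was at 3.39 ± 0.875 and 3.79 ± 0.861 CPM and Rxrg at 6.20 ± 1.10 and 6.47 ± 1.39 CPM. Of the coregulators, Ncoa1, a coactivator of nuclear receptors, was at 19.1 ± 0.0796 and 15.6 ± 0.247 CPM (log2 fold change −0.29, SE 0.12, edgeR adjusted p = 0.35). Ncor1, a corepressor of nuclear receptors, was at 19.6 ± 9.97 and 32.5 ± 5.66 CPM, with overlap between the groups. Among other genes known to respond to retinoic acid, Rarres1 was at 48.6 ± 8.42 and 29.0 ± 8.39 CPM and Rarres2, which encodes the adipokine chemerin, at 485 ± 71.6 and 348 ± 31.7 CPM, both separated below (edgeR adjusted p = 0.31 and 0.32). Of the 6 such genes tested, these 2 were separated below (9.79% of all genes) and 0 above (12.2%). By fitted sign 4 of the 6 were higher and 2 lower. Their median log2 fold change was 0.056, and 0.29 with library totals. Hoxb4 was at 0.941 ± 0.0629 and 1.15 ± 0.398 CPM.

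**Figure D4:**
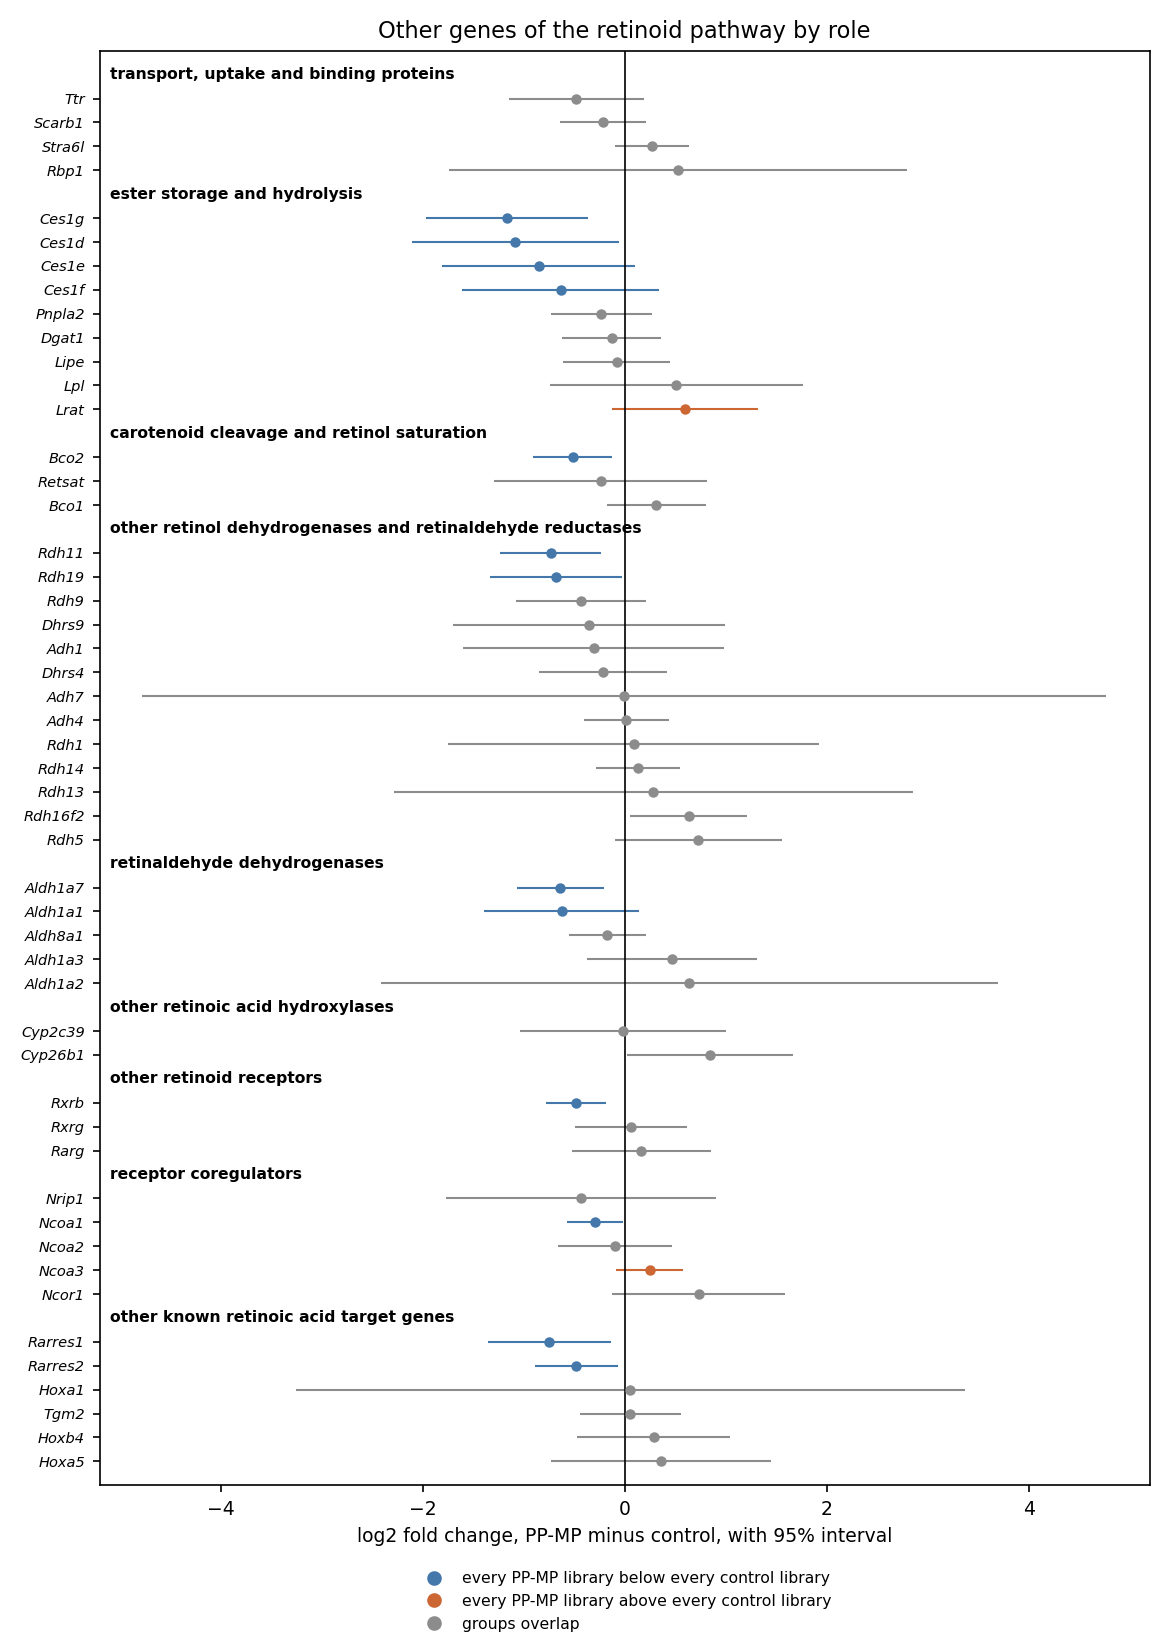
Log2 fold change, PP-MP minus control, of the tested other genes of the pathway by role (all but 1 of the 51), each with the 95% interval of the edgeR fit and coloured by whether the libraries of the 2 groups overlap. The 13 genes separated below include Ces1g, Rdh11, Aldh1a7 and Rxrb, and the 2 separated above are Lrat and Ncoa3, named here after their values were seen.

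Fewer cells of a type and less RNA per cell cannot be told apart in these whole liver samples. Markers of stellate cells, the store of retinyl esters, overlapped between the diets, with a summed level of 10 genes of 459 to 482 CPM under normal chow and 398 to 604 CPM under PP-MP. The summed level of 5 hepatocyte markers was 58767 to 66386 and 65252 to 75396 CPM. Alb made up most of that sum, at 51849 ± 4534 CPM under normal chow and 52699 ± 5504 CPM under PP-MP. Of the rest, Apoa1, Apob and Tat had higher means under PP-MP and Ttr a lower one. For 5 endothelial markers the sum was 68.6 to 83.2 and 57.7 to 102 CPM. Markers of Kupffer cells, the resident macrophages, summed to 80.7 to 103.6 CPM under normal chow and 117 to 444 CPM under PP-MP for 6 genes, with PP-MP 1 highest. Of these 6 genes, 2 (Timd4 and Marco) were separated above, as were 12.2% of all genes tested. At an unadjusted edgeR p under 0.05 stood 5 of the 6, all higher (8.05% of all genes), with adjusted p of 0.18 or more. The median log2 fold change of the 6 was 1.62. Without Marco the sums overlapped, at 77.2 to 102.0 and 92.4 to 306 CPM. Only PP-MP 3 lay within the control range there, with PP-MP 2 at 193 CPM. Neutrophil markers summed to 0.574 to 0.912 and 2.15 to 17.3 CPM for 4 genes, of which 2 (S100a8 and S100a9) were separated above (12.2% of all genes). Cxcr2 overlapped, and Ly6g was at 0 in every control library and in PP-MP 3. The 4 cholangiocyte markers (4.48 to 8.19 and 3.69 to 13.4 CPM) overlapped. The 4 T and B cell markers (3.20 to 8.09 and 2.55 to 3.11 CPM) had sums that did not overlap, with 2 of the 4 genes (Cd3e and Cd3d) separated below (9.79% of all genes). The part of these cell types in the levels above was not tested.

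The genes whose pattern over the 6 libraries was most like that of Rdh10 were Man1b1, Ak4 and Anxa4, with a root mean square difference of centred log2 CPM of 0.029, 0.043 and 0.045 among 11406 genes. Their log2 fold changes were −0.50, −0.49 and −0.57. For Rbp4 they were Map2k2, Abhd11 and Scrn2, at 0.038, 0.058 and 0.060, with log2 fold changes of 0.0028, −0.07 and −0.16.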

How the data were processed

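Liver RNA of 6 samples, 3 per diet, was sequenced from directional poly(A) libraries, per the labels' protocols. The authors deposited raw read counts per gene, and the 6 per-sample files are identical to the columns of the series table. The submitters' processing notes name bcl2fastq and the build GRCm39, while no source used here gives the aligner, counter, annotation or strand setting. Members, gene lists and tests were chosen with earlier results of these data known. Low counts were removed with filterByExpr (by group), TMM factors were computed, and the remaining 18284 genes entered the quasi-likelihood test of edgeR 4.0.16 in R 4.3.3 with its robust options, p-values being two-sided and adjusted by Benjamini-Hochberg over all of them. Intervals are 95% intervals of that fit. Libraries of 1 group differed well beyond counting noise (chi-square per degree of freedom from 154 to 928), so none was a duplicate. The 939 rows that share a symbol were kept row by row. Exon lengths, overlaps and shared 50-base words came from GENCODE M21 on GRCm38. No coordinates of the counted genes are given because the builds differ. All 9 members are named, and in each role up to 3 tested pathway genes of smallest p; any other gene is named where its reason is given, and 1 pathway gene that enters the counts is not reported here by name. Genes of similar pattern, 3 each for Rbp4 and the member of smallest p, came from those averaging 1 CPM or more that are no predicted genes or pseudogenes, on log2 CPM with a prior count of 2. The alternatives tried were library totals, size factors of DESeq2 in edgeR, limma-voom (limma 3.58.1), no filter, genes averaging at least 1 CPM, DESeq2 1.42.0 as the test, a block for replicate number and each library left out. The fit without both control 2 and PP-MP 1, the counts of members without overlap or with a small unadjusted p, the ratios and the marker sum without Marco were added after seeing the data. The edgeR fit was tested on simulated counts. The dispersions used to simulate were changed after a first run, and in both runs false calls made up more of the calls than the nominal rate, so adjusted p-values near the threshold may be too small. The second run drew dispersions from their trend over level, and only genes averaging at least 1 CPM were changed in it. There 1.49% of genes changed 1.5-fold were recovered, 17.9% of those changed 2-fold and 87.9% of those changed 4-fold. Recovery was lower in the first run, so these rates may be too high for the present data. A gene that was not called may therefore still differ. Python 3.11.15 with pandas 2.3.3, Biopython 1.88 and matplotlib 3.10.9 served for tables, alignments and figures.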

Additional observations from a re-analysis of the deposited data

How the results depend on the processing

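Over all genes edgeR called 2, against 777 with DESeq2, 1 with limma-voom, 1 with library totals, 0 with the replicate block and 0 to 92 with single libraries left out. Of the 9 retinoid genes 0 were called under every alternative but DESeq2, which called 1 (Rdh10), and of the other pathway genes 0 under every alternative but DESeq2, which called 2. The count of 5 retinoid genes lower without overlap went to 0 with library totals, to 4 with no filter, to 4 with a filter at a mean CPM of 1 and to 4 to 6 with single libraries left out. The count of 4 with an unadjusted p under 0.05 went to 0 with library totals, 1 with the replicate block and 1 to 5 with single libraries left out. Replicate numbers do not pair the samples by the labels, and deviations of same-numbered libraries correlated at −0.0662, −0.0872 and 0.0470. The sign turned for 8 of the genes named. These were Rbp4 (0.16 with library totals; −0.26 to 0.10 with single libraries left out), Cyp26a1 (−0.021 with limma-voom, −0.0013 with the replicate block; −0.20 to 0.29), Scarb1 (0.021 with library totals), Hoxb4 (−0.035 to 0.44 with single libraries left out, −0.0061 without control 2 and PP-MP 1), Rarg (−0.0038 to 0.36), Retsat (−0.60 to 0.13), Rxrg (−0.065 to 0.23) and Cyp2c39. For Cyp2c39 the value was 0.21 with library totals, 0.011 with no filter, 0.014 with a filter at a mean CPM of 1, 0.035 with the replicate block, and −0.32 to 0.42 with single libraries left out. The cause was not tested. Cyp26a1 and Rarb, with 30 to 101 counts per library, gave no value under a filter at a mean CPM of 1, and depth limits what can be seen of them.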
